A study of Mus musculus with 8 samples.

Results

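The 10 genes described here are Hoxa3, Hoxa5, Hoxa7, Hoxa9 and Hoxa10 of the HOXA cluster and Hoxb2, Hoxb3, Hoxb4, Hoxb5 and Hoxb6 of the HOXB cluster. They were chosen by symbol, and 10 of 10 were found among the 11854 named entries of the deposited gene table. The table holds haematopoietic stem cells (HSCs) sorted from mouse bone marrow, in 4 libraries from 4 Nupr1-/- mice and 4 libraries from 4 wild type mice. All mice were on a C57BL/6 background. Nupr1 encodes a small stress-induced nuclear protein. The labels give neither the Nupr1 allele, nor the age or sex of the mice, nor the surface markers of the sort, and nothing says whether the deletion acts in blood cells alone.

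HOX genes encode homeodomain transcription factors that give cells their position along the body axis, and mammals carry them in clusters in which gene order follows the order of expression. In blood formation the HOXA and HOXB clusters are used mainly by stem and early progenitor cells and are turned down as cells mature. The trithorax protein KMT2A (MLL) keeps these genes on, polycomb complexes silence them, and HOX proteins bind DNA together with partners of the TALE family, MEIS proteins among them.

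Values are normalised reads, meaning gene reads divided by 1 size factor per library. None of the 10 HOX genes passed the test for a difference between Nupr1-/- and wild type HSCs (limma over 10989 genes, Benjamini-Hochberg adjusted p under 0.05), while 3.8% of all genes tested did in either direction and 2.12% did as lower in Nupr1-/-. The summed HOXA reads were 695 ± 169 in Nupr1-/- and 1119.7 ± 186 in wild type (SD, n = 4 mice each), and the 4 Nupr1-/- sums all lay below the 4 wild type sums. None of the HOXA genes separated in this way on its own, while 5.91% of all genes tested did. The summed HOXB reads were 155 ± 73.2 in Nupr1-/- and 185 ± 44.9 in wild type, and these ranges overlapped. Hoxa5, Hoxa9 and Hoxb4 had an unadjusted p under 0.05, as 19.7% of all genes did (9.75% as lower in Nupr1-/-). Hoxb4 entered the test through its wild type libraries alone, since its Nupr1-/- values were all under the minimum of 10.

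In GENCODE M21 (mm10) the HOXA cluster spans 105.291 kb of chromosome 6, from 52155590 to 52260880, and holds 11 HOX genes. The HOXB cluster spans 173.941 kb of chromosome 11, from 96194316 to 96368256, and holds 10. Promoter windows of 250 bases before to 50 bases after the start site were available for 6 of the 10 genes. Shown here are those of Hoxa5, Hoxa9 and Hoxb4, the genes with the 3 smallest p-values (RefSeq, GRCm38.p6, 5′ to 3′ on the gene's strand). Capitals mark the homeodomain core TAAT, the CCAAT box and the GC box GGGCGG on either strand. Hoxa5 (chr6:52204538-52204837, minus strand), Hoxa9 (chr6:52227321-52227620, minus strand) and Hoxb4 (chr11:96318017-96318316, plus strand) read as follows.
Hoxa5: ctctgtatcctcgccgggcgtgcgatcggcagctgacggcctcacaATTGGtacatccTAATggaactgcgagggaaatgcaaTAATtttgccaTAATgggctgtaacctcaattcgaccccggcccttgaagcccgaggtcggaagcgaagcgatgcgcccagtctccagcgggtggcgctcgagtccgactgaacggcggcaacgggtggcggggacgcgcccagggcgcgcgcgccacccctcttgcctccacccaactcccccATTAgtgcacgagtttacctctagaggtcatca
Hoxa9: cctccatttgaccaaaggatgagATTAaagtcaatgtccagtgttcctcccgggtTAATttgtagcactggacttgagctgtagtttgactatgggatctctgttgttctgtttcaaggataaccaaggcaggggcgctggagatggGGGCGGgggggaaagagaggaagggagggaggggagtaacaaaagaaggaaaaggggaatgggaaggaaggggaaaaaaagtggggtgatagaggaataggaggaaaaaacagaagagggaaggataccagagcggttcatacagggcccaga
Hoxb4: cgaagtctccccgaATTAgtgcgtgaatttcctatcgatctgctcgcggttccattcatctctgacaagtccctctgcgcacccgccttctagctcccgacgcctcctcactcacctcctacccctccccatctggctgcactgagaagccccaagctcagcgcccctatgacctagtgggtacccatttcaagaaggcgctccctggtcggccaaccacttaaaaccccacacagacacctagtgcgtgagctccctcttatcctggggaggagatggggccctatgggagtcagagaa

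The window of Hoxa5 had a GC content of 61.7% with 29 CpG sites and held 4 TAAT cores and 1 CCAAT box. The window of Hoxa9 had a GC content of 49.7% with 4 CpG sites and held 2 TAAT cores and 1 GC box, and that of Hoxb4 had a GC content of 58.0% with 14 CpG sites and 1 TAAT core. Over all 32851 promoter windows the medians were 52.7% GC and 7 CpG sites, so the Hoxa5 window was the most CpG-dense of the 3 shown. TAAT occurred in 58.0% of all windows, CCAAT in 37.4% and GGGCGG in 35.7%, so each of these letters is common in promoters. The TATA box TATAAA (13.6% of all windows), the E-box CACGTG (7.15%) and the HOX cofactor motif TGATNNAT (8.85%), searched on both strands, were in none of the 3 windows.

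The libraries held 2296101 to 3959564 recovered reads in Nupr1-/- and 3340217 to 4769401 in wild type. On the first principal component (25.6% of the variance) wild type library 2 lay at 126.5 and the other 7 libraries between -36.9 and -0.81. On the second (22.4%) wild type library 2, at 21.8, lay near the Nupr1-/- libraries (24.1 to 61.3). Wild type libraries 1, 3 and 4 lay between -67.3 and -45.7 there. Nupr1 itself had 179, 173, 200.6 and 119 normalised reads in the libraries labelled Nupr1-/- and 285, 134, 245 and 318 in those labelled wild type (limma adjusted p = 0.433). These ranges overlap, so the transcript does not separate the groups, and the genotype rests on the labels. Of the HSC identity genes 20 of 20 were in the table, among them Procr at 401 ± 46.2 in Nupr1-/- and 586 ± 72.9 in wild type and Kit at 775 ± 111 in Nupr1-/- and 682 ± 203 in wild type. Xist, transcribed from the inactive X chromosome, had 107 to 159 normalised reads in the 4 Nupr1-/- libraries and 0 to 11.8 in the 4 wild type libraries (limma adjusted p = 0.00812), so a difference in sex and the genotype cannot be told apart in any value that follows. For each library, the log2 value of every gene was taken relative to that gene's mean over the 8 libraries. The rank correlation of this deviation with GC content, over genes, was 0.150 to 0.301 in the Nupr1-/- libraries and -0.303 to -0.138 in the wild type libraries. With the trends on GC content and length removed, 28 of 10888 genes tested passed, and 0 of the 10 HOX genes did. In that fit 7 of the 10 lay below 0, and 4 had a limma unadjusted p under 0.05. The share of all genes was not computed there for either count.

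Hoxa9 had the most reads of the 10 genes in all 8 libraries, on a scale not corrected for length. It encodes a factor needed for normal stem and progenitor cell function and is a leading oncogene of acute myeloid leukaemia. It had 319, 424, 228 and 529 normalised reads in Nupr1-/- mice 1 to 4 and 566, 716, 576 and 499.6 in wild type mice 1 to 4. Nupr1-/- mouse 4 lay above wild type mouse 4, and the other 3 Nupr1-/- mice lay below every wild type mouse. The mean was 375 ± 130.1 in Nupr1-/- and 589.6 ± 91.1 in wild type, a log2 difference of -0.71 ± 0.26 (SE, n = 4 each; 95% interval -1.26 to -0.16; limma adjusted p = 0.143). The exact two-sided permutation test gave p = 0.0571, where the smallest p that 70 assignments allow is 0.0286. The permutation p rests on the values of these 8 mice alone, while the limma p also draws on the spread of all genes tested.

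Hoxa5, a factor that in human progenitors favours myeloid over erythroid differentiation, had 117, 177, 82.2 and 116 normalised reads in Nupr1-/- mice and 494, 163, 174 and 294 in wild type mice. Wild type mice 1 and 4 were high, and wild type mice 2 and 3 lay below the highest Nupr1-/- mouse. The mean was 123 ± 39.5 in Nupr1-/- and 281 ± 154 in wild type (SD, n = 4 each). The log2 difference was -1.09 ± 0.39 (SE; 95% interval -1.90 to -0.28), with a limma adjusted p of 0.125 and an exact permutation p of 0.0857. Hoxa5 was the only one of the 10 genes that any alternative called. DESeq2 gave it an adjusted p of 0.0493 (6.95% of all genes passed there, those without an adjusted p counted as not passing). Limma without wild type library 2 gave it 0.0395 (8.02% passed). For Hoxb4 DESeq2 gave no adjusted p (DESeq2 unadjusted p = 0.0199), so that gene was not decided there. Without wild type library 1, the highest, the log2 difference of Hoxa5 was -0.77 and its limma adjusted p 0.343. Wild type mice varied by 54.6% (coefficient of variation), where counting error alone would give 5.27%.

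Hoxa10, which like Hoxa9 belongs to the posterior HOXA group and is active in stem and myeloid progenitor cells, had 59.8, 68.6, 71.6 and 99.1 normalised reads in Nupr1-/- mice and 153, 145, 90.7 and 51.4 in wild type mice. The lowest of all 8 values was in wild type mouse 4, so the groups overlapped (log2 difference -0.45 ± 0.47, limma adjusted p = 0.629). Hoxa3, best known for the development of the thymus and parathyroid, had 64.2, 59.9, 21.2 and 47.2 in Nupr1-/- mice and 96.8, 89.7, 102 and 37.8 in wild type mice. Again wild type mouse 4 lay among the Nupr1-/- mice (log2 difference -0.76 ± 0.57, limma adjusted p = 0.487). Hoxa7, another target of KMT2A, had 69.998, 72.3, 85.7 and 69.4 in Nupr1-/- mice and 59.9, 27.6, 87.7 and 54.4 in wild type mice. It was the only HOXA gene of the 5 with a higher mean in Nupr1-/- (74.4 ± 7.66 against 57.4 ± 24.7 in wild type; log2 difference 0.47 ± 0.52; limma adjusted p = 0.652), and its Nupr1-/- values were the most even of the 10 genes, with a highest-to-lowest ratio of 1.23.

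**Figure D1:**
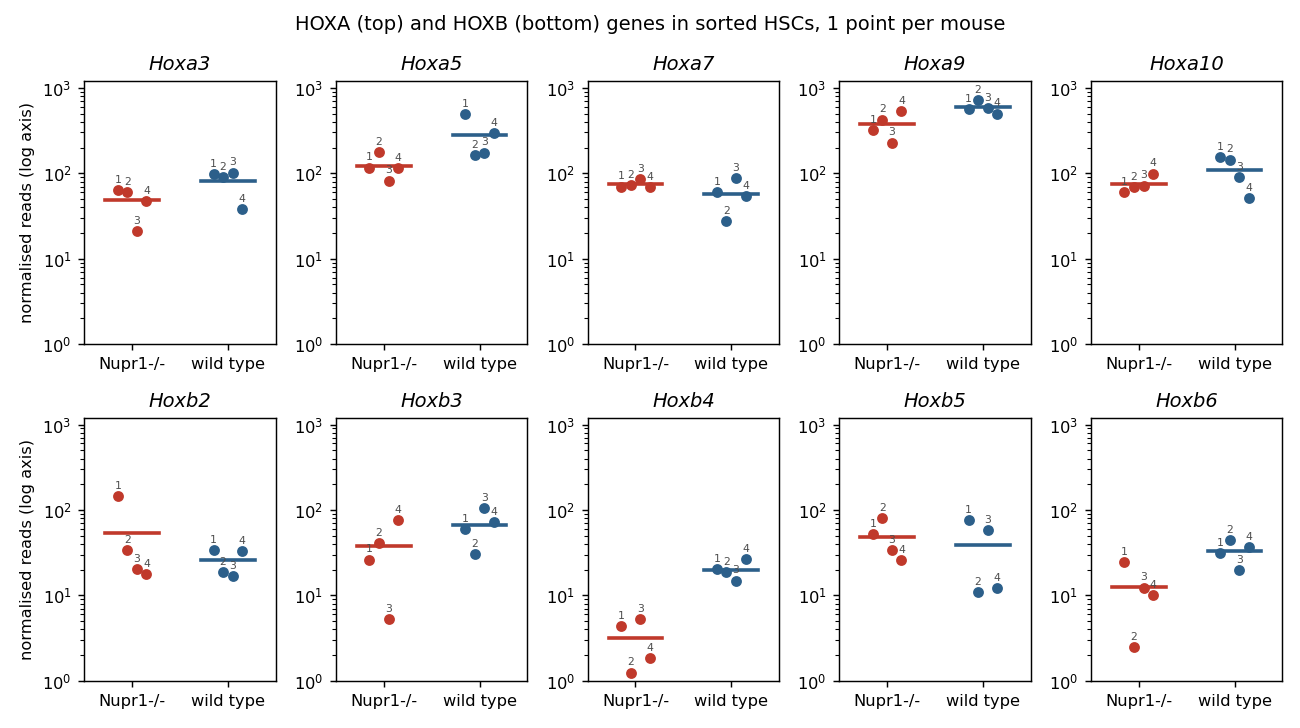
Normalised reads of each of the 10 HOX genes (vertical log axis) in the 4 Nupr1-/- mice, left, and the 4 wild type mice, right, in each panel; points are mice, numbered as in the labels, and lines are group means. Hoxb4 is the one gene whose Nupr1-/- values (1.25 to 5.30) all lie below its wild type values (14.96 to 26.5).

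The plot of each gene by mouse shows the separation of Hoxb4 and the single high Hoxb2 value. Hoxb4, whose enforced expression expands HSCs in culture and after transplantation, had 4.37, 1.25, 5.30 and 1.85 normalised reads in Nupr1-/- mice and 20.2, 18.7, 14.96 and 26.5 in wild type mice. Its groups did not overlap, which was so in this direction for 1 of the 10 HOX genes and for 5.91% of all genes. These values rest on 3, 1, 6 and 2 recovered reads in Nupr1-/- mice and on 29, 19, 15 and 35 in wild type mice. Summed, 12 reads in Nupr1-/- stood against 98 in wild type, and the Nupr1-/- to wild type ratio of reads per total reads was 0.157 with an exact 95% interval for counting error of 0.0787 to 0.288. On the log2 scale the difference was -2.43 ± 1.15 (SE, n = 4 each; 95% interval -4.85 to -0.01), with a limma adjusted p of 0.253 and an exact permutation p of 0.0286, the smallest possible. Hoxb4 passed the filter on low values (10 in at least 4 libraries) through its wild type libraries alone, and it had the fewest reads of the 10 genes, at percentile 6.91 of all entries by mean value. Its limma unadjusted p was 0.0491 with all mice and 0.0445 to 0.107 over the fits without 1 mouse. With the replicate block it was 0.0750.

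Hoxb6, which in mouse marrow has been tied to early myeloid progenitors, had 24.8, 2.49, 12.4 and 10.2 normalised reads in Nupr1-/- mice and 31.3, 44.3, 19.9 and 37.0 in wild type mice. Nupr1-/- mouse 1 lay above wild type mouse 3, and the other 3 lay below all wild type mice (log2 difference -1.61 ± 0.93, SE; limma adjusted p = 0.352; exact permutation p = 0.0571). Hoxb3, which acts with Hoxb4 in HSC proliferation in mice, had 26.2, 41.1, 5.30 and 76.9 in Nupr1-/- mice and 59.2, 30.5, 106 and 71.8 in wild type mice. Its Nupr1-/- mice covered a 14.5-fold range, the widest of the 10 genes in that group (log2 difference -1.18 ± 0.77; limma adjusted p = 0.421).

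Hoxb5, reported as a mark of long-term HSCs in mice, had 52.5, 79.8, 33.6 and 25.9 normalised reads in Nupr1-/- mice and 75.9, 10.8, 57.8 and 12.1 in wild type mice. Wild type mice 2 and 4 were the lowest of all 8, and wild type mouse 1 was close to the top (log2 difference 0.63 ± 0.79, SE; limma adjusted p = 0.699). Hoxb2, best known from hindbrain patterning, had 144, 33.7, 20.3 and 17.6 in Nupr1-/- mice and 34.1, 18.7, 16.9 and 33.3 in wild type mice. One mouse, Nupr1-/- mouse 1, set the higher mean (log2 difference 0.56 ± 0.81; limma adjusted p = 0.746), and without it the log2 difference was -0.093.

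**Figure D2:**
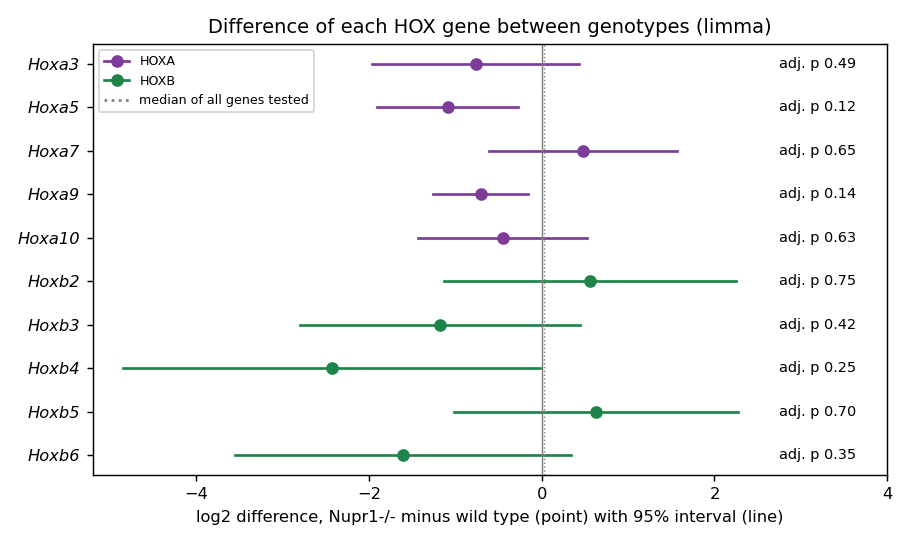
Log2 difference, Nupr1-/- minus wild type, of each HOX gene (points) with its 95% interval (lines) and its limma adjusted p, HOXA genes in purple and HOXB genes in green. The intervals of Hoxa5, Hoxa9 and Hoxb4 do not reach 0, and no adjusted p is under 0.05. Hoxb4 entered the test through its wild type libraries alone, and its interval ends at -0.01.

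The plot of log2 differences sets the 10 genes side by side: 7 of 10 lay below 0, as did 48.7% of all genes tested. By cluster these were 4 of 5 HOXA genes and 3 of 5 HOXB genes, with Hoxa7, Hoxb2 and Hoxb5 above 0. The median log2 difference was -0.74 over the 10 genes, -0.71 over the HOXA genes and -1.18 over the HOXB genes, beside 0.03 over all genes tested. The HOXB median is the value of Hoxb3, whose 95% interval runs from -2.80 to 0.44. By summed reads the order of the clusters was the reverse, with log2 ratios of -0.69 for HOXA and -0.26 for HOXB. The HOXB genes are low in reads and their intervals wide, so a difference of the size seen for Hoxa9 would lie inside the interval of each. It would also lie inside those of Hoxa3, Hoxa5 and Hoxa10, but not inside that of Hoxa7 (-0.62 to 1.56). In RNA from sorted populations, fewer cells of a type and less RNA per cell cannot be told apart.

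The summed reads of the 5 HOXA genes were 630, 802, 489 and 860 in Nupr1-/- mice and 1370, 1141, 1031 and 937 in wild type mice. Nupr1-/- mice thus had 62.1% of the wild type mean, and the gap between the highest Nupr1-/- mouse and the lowest wild type mouse was small beside the spread within each group. The summed HOXB reads were 252, 158, 76.9 and 132 in Nupr1-/- mice and 221, 123, 215 and 181 in wild type mice. Nupr1-/- mouse 1, with its high Hoxb2, had the highest HOXB sum of all 8 mice and the second lowest HOXA sum. These sums are a description with no test, since the genes were chosen with results of these data known.

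HOXB genes gave 28.6, 16.5, 13.6 and 13.3% of the reads of the 10 genes in Nupr1-/- mice and 13.9, 9.74, 17.3 and 16.2% in wild type mice. This share does not depend on how a library is scaled. It averaged 18.01 ± 7.20% in Nupr1-/- and 14.3 ± 3.33% in wild type (SD, n = 4 each), and without Nupr1-/- mouse 1 the difference was 0.210 percentage points instead of 3.74. The leading HOXB gene, by normalised reads per kb of merged exon, changed from mouse to mouse: Hoxb2 in Nupr1-/- mouse 1, Hoxb5 in Nupr1-/- mice 2 and 3 and wild type mouse 1, Hoxb3 in Nupr1-/- mouse 4 and wild type mouse 3, and Hoxb6 in wild type mice 2 and 4. Within the HOXA sum the part of Hoxa9 was nearly the same in both groups, at 52.9 ± 6.25% in Nupr1-/- and 53.3 ± 8.94% in wild type.

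**Figure D3:**
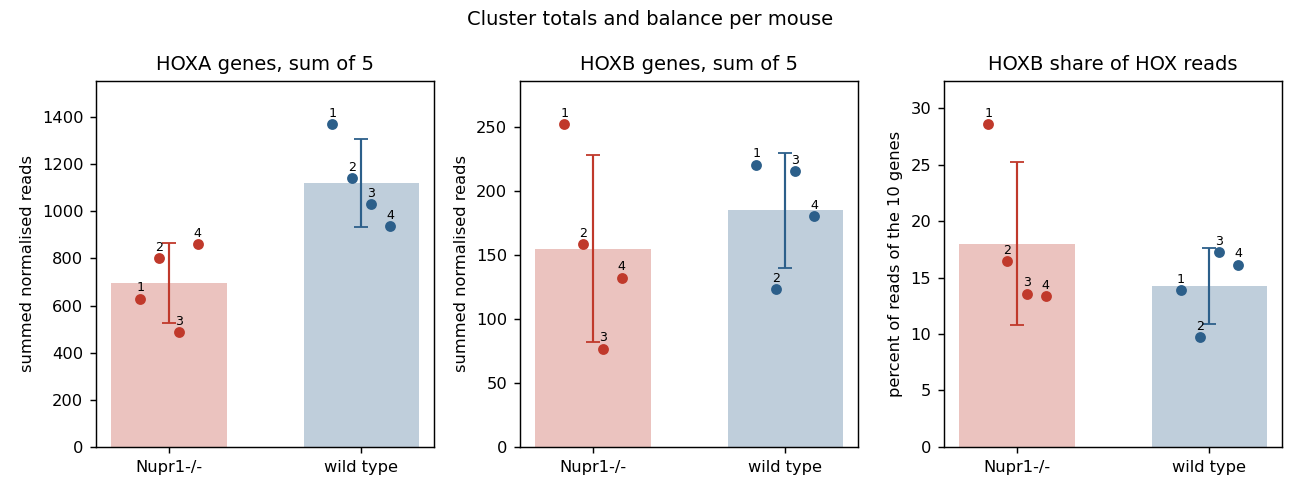
Summed normalised reads of the 5 HOXA and the 5 HOXB genes, and the percent of the 10 genes' reads that came from HOXB, per mouse (numbered points), with bars at the group mean and SD as error bars, Nupr1-/- left and wild type right. The HOXA sums of Nupr1-/- (489 to 860) lie below those of wild type (937 to 1370), whereas the HOXB sums and shares overlap. Of all genes tested, 5.91% separate in the same direction on their own, and no such share was computed for sums of 5 genes.

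The plot of cluster totals shows the separated HOXA sums and the overlapping HOXB sums. As log2 ratios, Nupr1-/- over wild type, the sums gave -0.69 for HOXA and -0.26 for HOXB. Without Nupr1-/- mouse 1 the HOXB ratio was -0.59, close to that of HOXA (-0.64 without the same mouse), and without Nupr1-/- mouse 3 it was -0.031, so the contrast between the clusters depends on single mice. The difference between the clusters was not tested. Levels of different genes can be compared only per length. The order below is per kb of merged exon and depends on that choice of length. Merged exons of all transcripts cover 5580 bases in Hoxa9 and 6014 in Hoxa3, where the longest transcripts have 3226 and 2591. Hoxa5 has 1877 bases by either length, so its place relative to Hoxa9 is not settled. Averaged over the 8 libraries, Hoxa5 came first with 107.6 normalised reads per kb and Hoxa9 second with 86.4. Hoxa5 lay above Hoxa9 in 5 of 8 libraries only, so these neighbours do not differ beyond their spread, while Hoxa9 lay above the next gene, Hoxa10 (28.3), in 8 of 8. Hoxa7 had 22.9 normalised reads per kb, and Hoxa10 lay above it in 3 of 8 libraries. Then came Hoxb5 (15.6), Hoxb3 (12.3), Hoxb6 (11.6), Hoxb2 (11.4) and Hoxa3 (10.8) with no clear order, each above its next neighbour in 3 to 7 of 8 libraries. Hoxb4 was last with 4.54 normalised reads per kb, at 1.24 ± 0.761 in Nupr1-/- and 7.83 ± 1.87 in wild type.

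**Figure D4:**
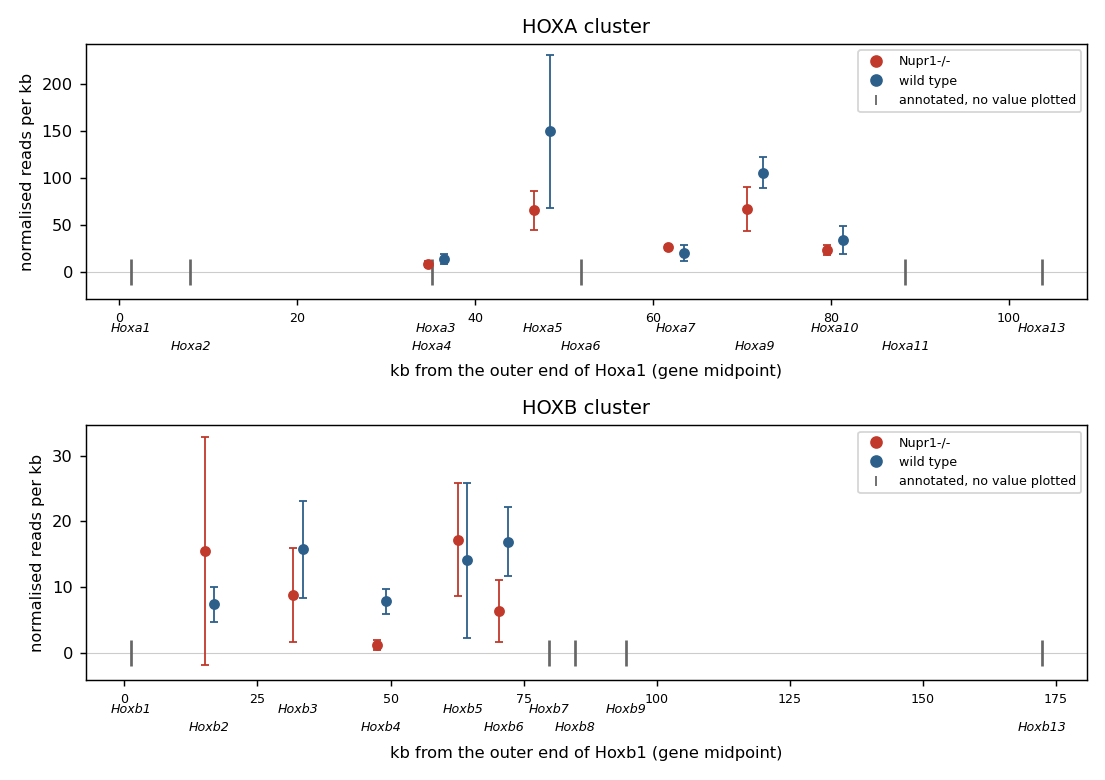
Normalised reads per kb of merged exon (vertical axis, mean ± SD of 4 mice, a different scale for each cluster) at each gene's place along the HOXA and HOXB clusters, with Nupr1-/- points drawn left of wild type points and ticks for annotated HOX genes outside the 10. The highest levels lie at Hoxa5 and Hoxa9, and the SD of Hoxb2 in Nupr1-/- is larger than its mean.

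The map along the clusters shows Hoxa5 and Hoxa9 standing out in the middle of HOXA, with low genes between and beside them, while the HOXB genes from Hoxb2 to Hoxb6 lie at low levels. Some exons are shared with other transcripts, and the library kit does not mark strand: 52.9% of the exon length of Hoxb3 and 27.3% of that of Hoxb2 overlap another gene, mainly the antisense transcript Hoxb3os, as do 27.1% of Hoxa3 and 20.4% of Hoxa7, largely with Hoxaas3 and neighbouring transcripts. Within the shared stretches, reads of these 4 genes and of their partners cannot be told apart. Whether such reads were counted or dropped is not stated, so the levels of these 4 genes per kb of full exon length are uncertain. Hoxa5, Hoxa10, Hoxb4 and Hoxb6 had no such overlap, Hoxa9 had 1.52% and Hoxb5 3.59%. Hoxb3os itself had 0, 6.23, 2.65 and 13.0 normalised reads in Nupr1-/- mice, with 0 in the mouse with the high Hoxb2, and 9.05, 0, 0 and 0 in wild type mice.

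Of the other 29 HOX genes of the mouse, Hoxa2, Hoxa4, Hoxb7 and Hoxb9 were in the table and the rest were not analysed here. Hoxa4 had 39.4, 6.23, 38.0 and 14.8 normalised reads in Nupr1-/- mice and 0, 0, 6.98 and 18.9 in wild type mice. It thus leaned the other way from most genes of its cluster (log2 difference 2.54; limma adjusted p = 0.306). Hoxa2 averaged 24.7 ± 11.8 in Nupr1-/- and 43.9 ± 32.2 in wild type (limma adjusted p = 0.690), Hoxb7 had a limma adjusted p of 0.942, and Hoxb9 was too low to test.

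None of the tested genes around the clusters was called: of 22 listed neighbours within 500 kb, 14 were tested and 0 passed (0 also at an unadjusted p under 0.05), with a median log2 difference of -0.03. The nearest tested neighbours of HOXA were Skap2, 143 kb away, at 409 ± 127 in Nupr1-/- and 374 ± 170.2 in wild type (limma adjusted p = 0.801), and Hibadh, 285 kb away, at 531 ± 133 in Nupr1-/- and 639 ± 37.6 in wild type (limma adjusted p = 0.483). Those of HOXB were Atp5g1, 119 kb away (limma adjusted p = 0.907), and Skap1, 96.3 kb away, with 0 to 44.9 normalised reads in Nupr1-/- and 0 to 48.9 in wild type (limma adjusted p = 0.9999). The neighbour with the smallest p, Gngt2, 349 kb from HOXB, had 52.5, 39.9, 50.4 and 15.7 in Nupr1-/- mice and 123, 41.4, 47.9 and 138 in wild type mice. Its groups overlapped, and its log2 difference of -1.06 ± 0.62 (SE; limma adjusted p = 0.364) was about as large as that of Hoxa5.

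Among the cofactors of HOX proteins, the TALE family of MEIS and related homeodomain proteins, 10 of 11 were tested and 0 passed (3 at an unadjusted p under 0.05; median log2 difference -0.05). Pknox1 had 212 ± 63.8 normalised reads in Nupr1-/- and 113 ± 69.6 in wild type (limma adjusted p = 0.191), and Tgif1, a repressor, had 188 ± 81.3 in Nupr1-/- and 331 ± 132 in wild type (limma adjusted p = 0.192). Meis1, a main partner of HOXA9 in blood and named after its values were seen, was abundant and close between groups, at 1025 ± 94.7 in Nupr1-/- and 1058 ± 206 in wild type (limma adjusted p = 0.956).

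Of the 23 trithorax, MLL and DOT1L complex genes, which keep HOX genes active, 1 rose and 1 fell (5 at an unadjusted p under 0.05; median log2 difference -0.09). Nsd1, a histone methyltransferase, rose to 621 ± 105 in Nupr1-/-, against 317 ± 51.7 in wild type (log2 difference 0.97; limma adjusted p = 0.0303). Mllt3 (AF9), a reader of acylated histones that recruits DOT1L and sustains human HSCs, fell to 838 ± 159 in Nupr1-/-, against 1399 ± 239 in wild type (log2 difference -0.74; limma adjusted p = 0.0440). With 1 of the 8 libraries dropped in turn, each kept its call in 1 fit, and with the GC and length trends removed the log2 difference was 1.01 for Nsd1 (limma adjusted p = 0.0833) and -0.23 for Mllt3 (limma adjusted p = 0.700). Kmt2a itself, named after its values were seen, had 535 ± 109 in Nupr1-/- and 401 ± 78.6 in wild type (limma adjusted p = 0.357).

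Of 31 polycomb genes, which silence HOX genes, 0 passed (8 at an unadjusted p under 0.05; median log2 difference 0.01). The smallest p-values were those of Rbbp4, a histone-binding subunit, at 123 ± 23.0 in Nupr1-/- and 251 ± 10.6 in wild type (limma adjusted p = 0.0685), and of Bmi1, a core subunit needed for HSC self-renewal, at 123 ± 63.5 in Nupr1-/- and 250.2 ± 58.8 in wild type (limma adjusted p = 0.104). Among CTCF and cohesin genes, which shape the chromatin loops of the clusters, 1 of 10 tested fell. This was Stag2, a cohesin subunit, at 151 ± 66.2 in Nupr1-/-, against 381 ± 102 in wild type (log2 difference -1.39; limma adjusted p = 0.0355). With 1 of the 8 libraries dropped in turn it kept its call in 2 fits, and with the GC and length trends removed its log2 difference was -0.65 (limma adjusted p = 0.415). Rad21, the next by p, had 679 ± 188 in Nupr1-/- and 868 ± 269 in wild type (limma adjusted p = 0.518).

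Of the CDX and retinoic acid receptor genes, upstream inducers of HOX clusters, 7 of 15 were tested and 0 passed (2 at an unadjusted p under 0.05; median log2 difference -0.47). Rarb, a retinoic acid receptor, had 47.6 ± 17.7 in Nupr1-/- and 152 ± 81.0 in wild type (limma adjusted p = 0.104), and Rxrb had 284 ± 88.7 in Nupr1-/- and 174 ± 68.7 in wild type (limma adjusted p = 0.236). Of the 20 HSC identity genes 1 rose and 1 fell (10 at an unadjusted p under 0.05; median log2 difference -0.29). Tie1, a receptor tyrosine kinase of HSCs and endothelium, rose to 465 ± 47.8 in Nupr1-/-, against 176 ± 45.3 in wild type (log2 difference 1.43; limma adjusted p = 0.0125; with the GC and length trends removed 0.93 and 0.155), and the gene that fell was Mllt3. Of the multipotent progenitor genes 5 of 12 were tested and 0 passed (3 at an unadjusted p under 0.05), with Cd27 at 645 ± 148 in Nupr1-/- and 417 ± 58.1 in wild type and Satb1 at 29.1 ± 15.7 in Nupr1-/- and 91.3 ± 56.0 in wild type.

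**Figure D5:**
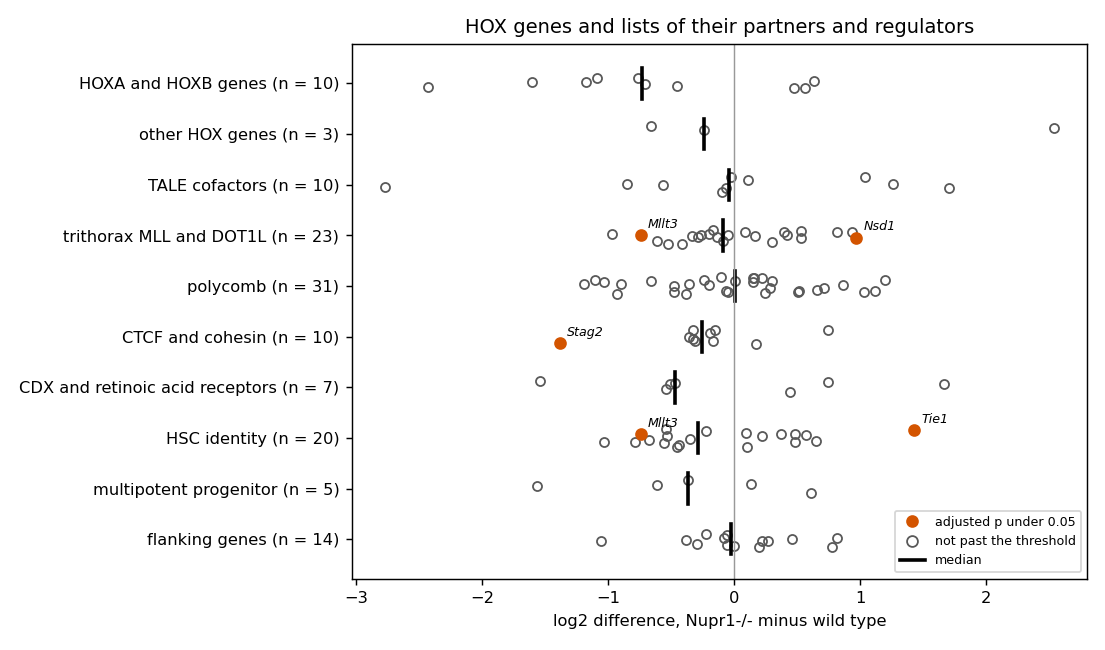
Log2 difference, Nupr1-/- minus wild type, of every tested gene (points) in the HOXA and HOXB genes and in each list of related genes, with the median of each list. The medians lie at -0.74 for the 10 HOX genes and between -0.47 and 0.01 for the other lists.

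The plot of related gene lists shows that each list of related genes held genes on both sides of 0. Of the marker lists named after other cell types, that of megakaryocytes and platelets was higher in Nupr1-/- in 9 of 9 genes tested (median log2 difference 2.14). Of all genes tested 48.7% lay below 0, and 3.8% passed in either direction. Of the 9 genes 4 rose (Itga2b, Gp9, Vwf and Pf4), and the list's summed level was 2061 to 2702 in Nupr1-/- and 893 to 1290 in wild type. Endothelial markers summed to 1615 to 1802 in Nupr1-/- and 995 to 1307 in wild type, but the 6 tested genes split evenly, 3 above and 3 below 0 (median log2 difference -0.07), with Eng called. Stromal markers summed to 239 to 297 in Nupr1-/- and 376 to 624 in wild type, with 0 of 3 called (1 at an unadjusted p under 0.05), 1 above 0 and 2 below. Erythroid markers summed to 4289 to 6269 in Nupr1-/- and 2638 to 4877 in wild type, ranges that overlap, with 3 of 5 tested genes above 0. Of these Klf1 was called, at 56.3 ± 26.7 in Nupr1-/- and 1.83 ± 1.43 in wild type. With the GC and length trends removed none of these 6 genes was called (limma adjusted p = 0.0770 to 0.485). The log2 difference was then 2.19 for Pf4 (1.95 uncorrected), 2.21 for Gp9 (2.55 uncorrected), 3.86 for Klf1 (4.39 uncorrected), 1.25 for Itga2b (1.76 uncorrected), 0.43 for Eng (0.92 uncorrected) and 0.38 for Vwf (0.82 uncorrected). With 1 of the 8 libraries dropped in turn, Itga2b kept its call in 8 fits, Gp9 in 6, Vwf in 3 and Pf4, Klf1 and Eng in 1 each. Whether these transcripts came from other cells or from the sorted HSCs themselves was not tested, nor was any part of other cells in the HOX values.

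Of the B cell markers 3 of 10 were in the table, summing to 213 to 380 in Nupr1-/- and 290 to 7634 in wild type, where Ighm alone had 1387 and 6740 normalised reads in wild type mice 3 and 4. Cd79b had 234 ± 30.0 normalised reads in Nupr1-/- and 551 ± 289 in wild type (limma adjusted p = 0.0868). Of 2 B cell markers tested, 2 lay below 0 and 0 passed (2 at an unadjusted p under 0.05). Cd79a, Pax5 and Ebf1, which define B cells, were not among the entries. Since no entry was above 0 in fewer than 3 libraries, their absence does not show that B cells were absent from single mice. Neutrophil markers (1 of 10 in the table) summed to 0 to 8.33 in Nupr1-/- and 3.99 to 17.4 in wild type. Monocyte markers (4 of 11) summed to 1467 to 2651 in Nupr1-/- and 1690 to 3197 in wild type. T and NK cell markers (2 of 12) summed to 71.5 to 133 in Nupr1-/- and 1.39 to 275 in wild type. These sums overlapped between the groups. Of the mast cell and basophil list only Gata1 (1 of 10) was in the table, so its values stand for that gene and not for a cell type. Gata1 had 184, 57.4, 152 and 244 normalised reads in Nupr1-/- mice and 3.48, 203, 32.9 and 0 in wild type mice. Its groups overlapped through wild type mouse 2 (log2 difference 3.42; limma adjusted p = 0.162).

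The genes whose pattern over the 8 libraries was most like the HOXA sum, by the root mean square difference of centred log2 values, were Man1a2 (0.108), 2410131K14Rik (0.133) and Enpp5 (0.138), where the median gene had 0.758. For the HOXB sum they were Dock11 (0.183), 1110059G10Rik (0.199) and Egln1 (0.229), where the median gene had 0.809. Man1a2, a Golgi mannosidase, had 228 ± 43.1 normalised reads in Nupr1-/- and 353 ± 70.02 in wild type. Dock11, an activator of small GTPases, had 295 ± 137 in Nupr1-/- and 309 ± 84.9 in wild type.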

How the data were processed

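RNA of sorted HSCs was measured in 8 libraries, 1 per mouse. Per the labels' protocols these were polyadenylated RNA libraries made with the Nextera XT kit, and the submitters' processing notes name HISAT2, featureCounts of Subread, bcl2fastq, DESeq2 and the build mm10, with neither versions nor settings. The table deposited by the authors holds a normalised signal per gene, not raw counts: all values in each library were whole multiples of 1 step within 0.001, and division by it gave back the reads. No entry was above 0 in fewer than 3 libraries.

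Values were tested as log2(value + 1) with limma 3.58.1 in R 4.3.3 (eBayes, robust, with trend; two-sided), Nupr1-/- minus wild type, over genes with at least 10 in at least 4 libraries (10989 tested, 865 left out). Per-gene exact permutation tests used the 70 assignments of mice. Alternatives were log2(value + 5), no filter, edgeR 4.0.16 and DESeq2 1.42.0 on recovered reads, a replicate block, removal of GC and length trends, and each library left out. Counting intervals are exact (95%) and cover counting error only, since PCR reads without molecular identifiers are not independent molecules. Positions came from GENCODE M21 (11715 symbols matched, 452 through older symbols), promoters from RefSeq. The test was run on simulated data first.

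Named were all 10 genes, Nupr1, at most 4 called genes of each list (the 2 smallest p-values where fewer than 2 were called), the nearest tested neighbours of each cluster, and the 3 genes closest in pattern to each cluster's sum. Marker genes named beside the HOX values, Xist, Procr and Kit were chosen after their values were seen. The members and lists were chosen with earlier results of these data known. 1 entry has no name and was left out.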

Additional observations from a re-analysis of the deposited data

Results flagged for a closer look

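Hoxb2 in Nupr1-/- mouse 1 stood far from the rest of its group, with 144 normalised reads (99 recovered reads) where the other 3 Nupr1-/- mice had 17.6 to 33.7 and the 4 wild type mice 16.9 to 34.1. The gap to the nearest mouse was 0.873 of the group's range, above the 95% critical value of Dixon's test for a group of this size. Among 26 groups of 4 examined this was the only sample so far out, and chance alone gives about 1 in 20 groups. In the same mouse Hoxb6, at 24.8 normalised reads, was also above the other 3 Nupr1-/- mice (2.49 to 12.4), whereas Hoxb3 (26.2), Hoxb4 (4.37) and Hoxb5 (52.5) lay within their range.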

How the results depend on the processing

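The cause of the shifts listed here was not tested. All genes passing numbered 418, against 764 with DESeq2, 277 with the replicate block, 28 with the GC and length trends removed, and 49 to 881 when 1 library was left out. HOX genes passing numbered 0, against 1 (Hoxa5) with DESeq2, which gave Hoxb4 no adjusted p, and 0 to 1 when 1 library was left out. Genes of the related lists passing numbered 4, against 8 with DESeq2, 0 with the GC and length trends removed and 0 to 13 when 1 library was left out. The log2 difference of Hoxb2 was -0.093 without Nupr1-/- mouse 1, and -0.093 to 0.90 over the fits without 1 mouse. The other 9 HOX genes kept their direction in all 15 alternatives, with Hoxa9 between -0.90 and -0.49 and Hoxb4 between -2.81 and -1.63, and each leave-one-out range held values more than 1.5 times from the full one for Hoxb3 (-1.68 to -0.47), Hoxb5 (0.20 to 1.10), Hoxa7 (0.17 to 0.71), Hoxa10 (-0.77 to -0.25), Hoxa3 (-1.09 to -0.42) and Hoxb6 (-2.03 to -1.07). The log2 ratio of the HOXB sums lay between -0.59 and -0.031 and that of the HOXA sums between -0.81 and -0.55. Replicate numbers did not pair the samples. Same-numbered mice had correlations of -0.0145, -0.0566, 0.0148 and -0.0155, and the strongest of all pairs was 0.0732 between different numbers. With the block 277 of 10989 genes tested passed, 0 of them HOX genes. There 2 HOX genes had a limma unadjusted p under 0.05, and the share of all genes at that level was not computed. Depth limits Hoxb4 most, with 1 to 6 reads in each Nupr1-/- library.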

Other observations

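Noncoding transcripts of the clusters were also measured. Hoxaas3, an antisense transcript that shares exon sequence with Hoxa3 and Hoxa7, had 89.0, 133, 158 and 117 normalised reads in Nupr1-/- mice and 185, 34.5, 67.8 and 94.5 in wild type mice (limma adjusted p = 0.528). Its lowest and highest values were both in wild type mice. Hoxb5os had 7.29 to 11.5 normalised reads in the 4 Nupr1-/- mice and 0 to 16.7 in the 4 wild type mice (limma adjusted p = 0.632).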
